A study of Mus musculus with 64 samples.

Results

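Valproate (VPA) and ACY957 were compared directly in the ventral tegmental area of mice labelled Clock delta 19 mutant. Of the 64 libraries of the study, each from 1 adult male mouse, 16 were compared, and they were taken by drug and genotype label alone: 8 from mice given VPA and 8 from mice given ACY957, with no vehicle subtracted. Mice of both groups were treated for 14 days and killed at zeitgeber time 6 (6 h after lights on), about 24 h past the final dose. Bilateral punches of 1 mm were sequenced as poly(A) RNA. All 16 mice were of the strain labelled 129S1/Svlm and carried the same genotype label, so the direct comparison does not contrast genotype labels. Further groups used below were the vehicle libraries under the mutant label (13 for VPA and 11 for ACY957) and the drug-treated libraries under the wildtype label (8 and 8). The doses are not given in the sources used here. Mouse numbers run with the drug (25 to 31 and 58 for VPA, 40 to 47 for ACY957), so anything that went with the order of the mice cannot be told apart from the drug.

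Both drugs inhibit histone deacetylases, enzymes that remove acetyl groups from histone tails and so limit access to chromatin. VPA is a branched short-chain fatty acid used as a mood stabiliser and anticonvulsant, and it inhibits class I deacetylases among several other actions. ACY957 is an inhibitor selective for enzymes within class I, the class that includes Hdac1, Hdac2 and Hdac3, which it need not inhibit alike. Clock delta 19 is a dominant-negative allele of Clock, whose protein pairs with Bmal1 to drive genes with E-box motifs, and mice that carry it show mania-like behaviour. The ventral tegmental area holds the dopamine neurons of the mesolimbic system, which are marked by Th, the rate-limiting enzyme of dopamine synthesis. It lies next to the hypothalamus, so a punch can also take up hypothalamic tissue.

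The 16 libraries held 20.1 to 29.8 M counts (median 25.6 M), and correlations between them ranged from 0.982 to 0.992. VPA replicates 2 and 8 were low in Th, at 44.1 and 26.2 CPM (reads scaled to library size), while the other 6 VPA libraries lay between 303 and 1430 CPM and the ACY957 libraries between 669 and 1600 CPM. The mean log2 CPM of 8 clock-controlled genes, called here a clock output score, fell into a lower and an upper set over all 64 libraries, with a gap between 4.32 and 4.91. Of the 16 compared here, VPA replicate 2 (5.0) and ACY957 replicates 1 (4.96) and 3 (4.91) lay in the upper set, against their genotype label, and the rest in the lower set. Clock itself (chr5:76209868-76304792) had medians of 66.0 CPM with VPA and 73.3 CPM with ACY957 and did not pass the test (log2 fold change -0.12, SE 0.099, edgeR quasi-likelihood test, adjusted p = 0.501). The mutant allele is not told apart from the normal one by a count per gene. In bulk samples, fewer cells of a type and less RNA per cell cannot be told apart.

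Of 15634 genes tested, 869 (5.56%) differed between VPA and ACY957 at an adjusted p under 0.05 (edgeR): 495 (3.17%) were higher and 374 (2.39%) lower with VPA. The differences were small. The median size was 0.26 on the log2 scale among the higher genes and 0.33 among the lower, 83.4% of each stayed under 1.5-fold, and 63 of the higher and 17 of the lower passed 2-fold. In 63 genes (0.403%) the 8 libraries of a drug did not overlap the 8 of the other, with VPA above in 41 and below in 22. Without VPA replicates 2 and 8, which were low in Th, 897 genes (5.75%) were called, 475 higher (3.05%) and 422 lower (2.71%), and 539 of them were among the 869, each in the same direction. A fit of the 16 libraries by themselves called 260 genes (1.78%), 151 higher (1.03%) and 109 lower (0.745%), and shared 235 of them with the 869. With Th level as a covariate, 582 genes were called (3.72%), 344 higher (2.2%) and 238 lower (1.52%). With the 13 of the 64 libraries whose clock output went against their label left out, 802 genes were called, 593 of them among the 869.

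Single libraries moved this count. It was 233 without ACY957 replicate 2, 310 without ACY957 replicate 8, 548 without ACY957 replicate 6 and 553 without ACY957 replicate 3. It was 431 without VPA replicate 7, 452 without VPA replicate 8 and 568 without VPA replicate 5. All of the 869 genes that stayed testable kept their direction in each of those fits. In the stated fit and all 29 of its alternatives, 73 genes were called, 47 higher and 26 lower with VPA. Counts of 29 fits in the text below are of the alternatives. The genes described in the next paragraphs as called in 29 of 29 fits are among these 73.

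Neuromedin U, encoded by Nmu, was the gene with the smallest p and the largest fall with VPA relative to ACY957. Neuromedin U is a secreted neuropeptide that acts on its own pair of G protein-coupled receptors and is known for effects on feeding, stress responses and circadian timing. In the VPA libraries Nmu ran from 0.114 through a median of 0.744 to 1.45 CPM, and in the ACY957 libraries from 1.92 through 8.31 to 12.2 CPM. All 8 ACY957 libraries lay above all 8 VPA libraries. The 2 lowest VPA values, 0.114 and 0.175 CPM, were those of the low-Th replicates 2 and 8 and rested on 3 and 5 reads. The lowest ACY957 value was that of replicate 3, which is in the upper clock set, while replicate 1, also in that set, was at 11.8 CPM. The log2 fold change was -3.44 (SE 0.45, edgeR, adjusted p = 2.57e-06), and -3.09 (adjusted p = 0.000193) without VPA replicates 2 and 8. Nmu was called in 29 of 29 fits, with log2 fold changes between -3.63 and -3.04.

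**Figure D1:**
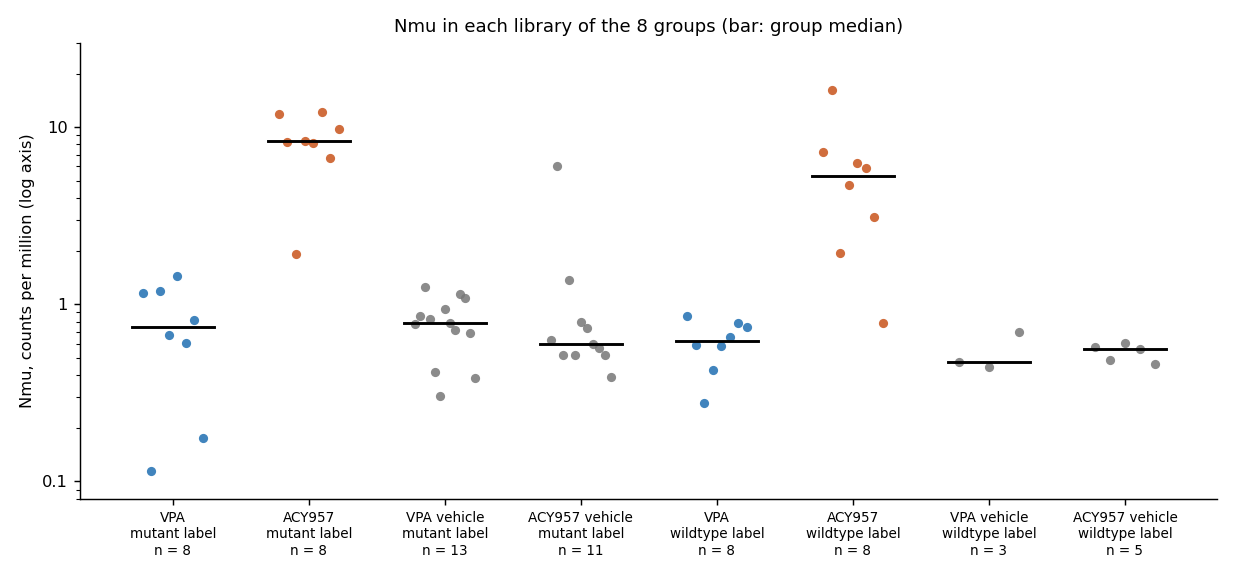
Nmu in CPM (log axis) in each library of the 8 groups of the study, with VPA in blue, ACY957 in orange, vehicles in grey and the group median as a bar. The ACY957 libraries under the mutant label lie between 1.92 and 12.2, all above the VPA libraries at 0.114 to 1.45.

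The vehicle libraries lay at the level of the VPA libraries. Vehicle libraries under the mutant label had Nmu medians of 0.78 CPM (VPA vehicle, 0.305 to 1.25) and 0.596 CPM (ACY957 vehicle, 0.39 to 6.02). VPA did not pass against its vehicle (log2 fold change -0.02, adjusted p = 0.989), while ACY957 did (2.88, SE 0.38, adjusted p = 4.82e-06, edgeR), and it was the only gene of that comparison to pass (0.0064% of genes). The exception among the vehicles was ACY957 vehicle replicate 2 at 6.02 CPM, within the range of the ACY957-treated libraries, and the next highest was at 1.37 CPM. Under the wildtype label the ACY957 libraries ran from 0.786 to 16.2 CPM and the VPA libraries from 0.279 to 0.859 CPM, and the 2 ranges met only through ACY957 replicate 8 at 0.786 CPM. The difference there was -3.23 (adjusted p = 8.65e-06), and it did not differ between the labels by a test of that difference (-0.21, adjusted p = 0.958).

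Nmu (chr5:76333495-76363788, minus strand) lies 28.7 kb from Clock on mm10, with 2 annotated genes between them, Gm7467 and Pdcl2. The 250 bases before its start are shown because Nmu led the comparison. They are set beside those of Smg5, the gene with the second smallest p among the lower genes, and Cd81, a higher gene whose groups also did not overlap. All are from RefSeq on mm10, 5′ to 3′ on the gene's strand, with matches to 4 motifs in capitals. The windows are chr5:76363778-76364027 (Nmu), chr3:88336010-88336259 (Smg5) and chr7:143052500-143052749 (Cd81).
Nmu: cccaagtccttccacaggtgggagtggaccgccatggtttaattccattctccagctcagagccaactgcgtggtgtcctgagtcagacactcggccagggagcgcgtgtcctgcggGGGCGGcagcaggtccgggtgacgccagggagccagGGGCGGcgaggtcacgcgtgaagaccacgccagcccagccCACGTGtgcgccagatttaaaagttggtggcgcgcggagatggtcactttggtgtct
Smg5: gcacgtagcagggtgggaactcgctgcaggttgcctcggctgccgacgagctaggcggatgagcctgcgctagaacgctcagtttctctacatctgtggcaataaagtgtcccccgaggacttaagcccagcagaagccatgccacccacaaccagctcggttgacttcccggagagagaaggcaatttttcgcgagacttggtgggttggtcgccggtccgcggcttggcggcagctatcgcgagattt
Cd81: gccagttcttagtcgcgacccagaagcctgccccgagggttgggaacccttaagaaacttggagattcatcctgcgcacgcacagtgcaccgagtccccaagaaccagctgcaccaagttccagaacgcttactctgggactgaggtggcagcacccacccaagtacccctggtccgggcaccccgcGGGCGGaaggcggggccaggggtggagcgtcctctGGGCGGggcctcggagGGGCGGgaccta

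The motifs, searched on both strands, were the E-box CACGTG, the cAMP response element TGACGTCA, the GC box GGGCGG and the CCAAT box CCAAT, none of which overlapped another here. The Nmu window held 1 E-box and 2 GC boxes, the Cd81 window 3 GC boxes, and the Smg5 window none of the 4. Among 32851 windows of the same length, 6.02% held the E-box, 1.55% the cAMP response element, 32.7% the GC box and 33.8% the CCAAT box. A match describes letters and not a bound site.

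Smg5 and Zbtb4 had the smallest p among the other lower genes. Smg5 (chr3:88336260-88362338), a factor of nonsense-mediated mRNA decay, ran from 39 through 44.5 to 52.3 CPM with VPA and from 53.9 through 61.2 to 73.1 CPM with ACY957. Zbtb4 (chr11:69765912-69784023), a zinc finger protein that binds methylated DNA, ran from 133 through 149 to 158 CPM and from 166 through 180 to 200 CPM. In both genes the groups did not overlap. Smg5 was lower by a log2 fold change of -0.46 (SE 0.077, edgeR, adjusted p = 0.000438) and Zbtb4 by -0.30 (SE 0.053, adjusted p = 0.000681).

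Sugct and Mras also had groups that did not overlap. Sugct, a mitochondrial enzyme that makes glutaryl-CoA, lay between 7.73 and 9.45 CPM with VPA (median 8.00) and between 10.2 and 11.7 CPM with ACY957 (median 10.6). Mras, a small GTPase of the Ras family, lay between 75.0 and 92.2 CPM (median 88.4) and between 94.8 and 109 CPM (median 102). Their log2 fold changes were -0.37 (adjusted p = 0.00111) and -0.26 (adjusted p = 0.00115, edgeR). The remaining genes among the 10 with the smallest p were Shc2 (an adaptor of receptor tyrosine kinases), Pou6f1 (a POU transcription factor), Myrip (a linker of Rab27a and myosin), Bbs4 (a BBSome subunit) and Dgka (a diacylglycerol kinase), with log2 fold changes between -0.45 (Myrip) and -0.22 (Bbs4). In these, 6 or 7 of the 8 VPA libraries lay below the lowest ACY957 library. All 10, Nmu included, were called in 29 of 29 fits.

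Leaving out the low-Th libraries brought Sgsm2, Kif5a, Dvl1 and Arrb1 among the 10 lower genes with the smallest p. Kif5a, a kinesin motor of axonal transport, ran from 315 through 369 to 680 CPM with VPA and from 444 through 628 to 903 CPM with ACY957. VPA replicate 2 alone, at 680 CPM, lay above the ACY957 median, and ACY957 replicate 8, at 903 CPM, stood apart from its group. The log2 fold change of Kif5a was -0.59 (SE 0.14, edgeR, adjusted p = 0.0107) in all libraries and -0.73 (adjusted p = 0.00234) without replicates 2 and 8. Sgsm2, a GTPase activator of Rab proteins, gave -0.33 and -0.41 (adjusted p = 0.00778 and 0.00133). In the 16 libraries alone Kif5a and Sgsm2 missed the threshold (adjusted p = 0.0511 and 0.0725). Dvl1, a Wnt signal transducer, and Arrb1, a beta-arrestin that desensitises receptors, fell by 0.26 and 0.28 on the log2 scale (edgeR, adjusted p = 0.00184 and 0.00694), and Arrb1 missed it with the offset for transcript length and GC content described below (adjusted p = 0.0766).

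Leaving aside the hypothalamic peptides below, Prom1, Cd81 and Ephx1 were among the higher genes with the smallest p. Prom1 (chr5:43993620-44102032), which encodes prominin, a glycoprotein of membrane protrusions, ran from 16.8 through 21.6 to 24.8 CPM with VPA and from 7.91 through 11.4 to 16.5 CPM with ACY957. Cd81 (chr7:143052739-143067934), a tetraspanin, ran from 779 through 848 to 912 CPM and from 668 through 714 to 766 CPM. Ephx1 (chr1:180976210-181020904), the microsomal epoxide hydrolase, ran from 31.3 through 36.9 to 40.6 CPM and from 23.4 through 27.6 to 29.5 CPM. In all 3 genes every VPA library lay above every ACY957 library. The log2 fold changes were 0.81 for Prom1 (SE 0.14, edgeR, adjusted p = 0.000681), 0.25 for Cd81 (SE 0.045, adjusted p = 0.000811) and 0.44 for Ephx1 (SE 0.081, adjusted p = 0.00113).

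Gpr89 (a Golgi anion channel) and Slc35a2 (the UDP-galactose transporter of the Golgi) were higher by 0.27 and 0.28, also without overlap (edgeR, adjusted p = 0.0012 and 0.00144). Snx3 (a sorting nexin of endosomes), Slc46a3 (a lysosomal transporter) and Bcap31 (a chaperone of the endoplasmic reticulum) rose by 0.29, 0.38 and 0.26, with 7 of 8 VPA libraries above every ACY957 library. For Bcap31 the exception was VPA replicate 2 at 151 CPM. These 5 genes, Prom1, Cd81 and Ephx1 were called in 29 of 29 fits. Without the low-Th libraries, Cldn11, Lamp1, Jam3, Tnfaip6, Tmbim4 and Slc44a1 joined the 10 with the smallest p. Lamp1, a lysosomal membrane protein, gave 0.20 in all libraries and 0.25 without the 2, and Jam3, a junctional adhesion molecule, 0.33 and 0.42. Tnfaip6, a hyaluronan-binding protein, gave 0.44 and 0.59, and Tmbim4, a Golgi protein, 0.24 and 0.32. Slc44a1, a choline transporter, passed only without them among these 2 fits (0.37, adjusted p = 0.00234, against 0.24, adjusted p = 0.0572). Lamp1, Jam3, Tnfaip6 and Tmbim4 missed the threshold in the 16 libraries alone (adjusted p = 0.0566, 0.0555, 0.0709 and 0.0511), and Tnfaip6 also without ACY957 replicate 2. Tnfaip6 and Tmbim4 missed it with the offset for transcript length (adjusted p = 0.0561 and 0.0981).

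Pglyrp1, a peptidoglycan recognition protein of innate immunity, was chosen after its values were seen because it differed under both genotype labels. It ran from 7.42 through 8.11 to 12.2 CPM with VPA and from 4.80 through 5.75 to 7.11 CPM with ACY957, with no overlap. The log2 fold change was 0.62 (SE 0.12, edgeR, adjusted p = 0.00184) under the mutant label and 0.80 (adjusted p = 3.08e-05) under the wildtype label. The vehicles differed too, by 0.47 (adjusted p = 0.00835), and neither drug passed against its own vehicle under the mutant label (0.04, adjusted p = 0.921, for VPA and -0.12, adjusted p = 0.969, for ACY957).

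**Figure D2:**
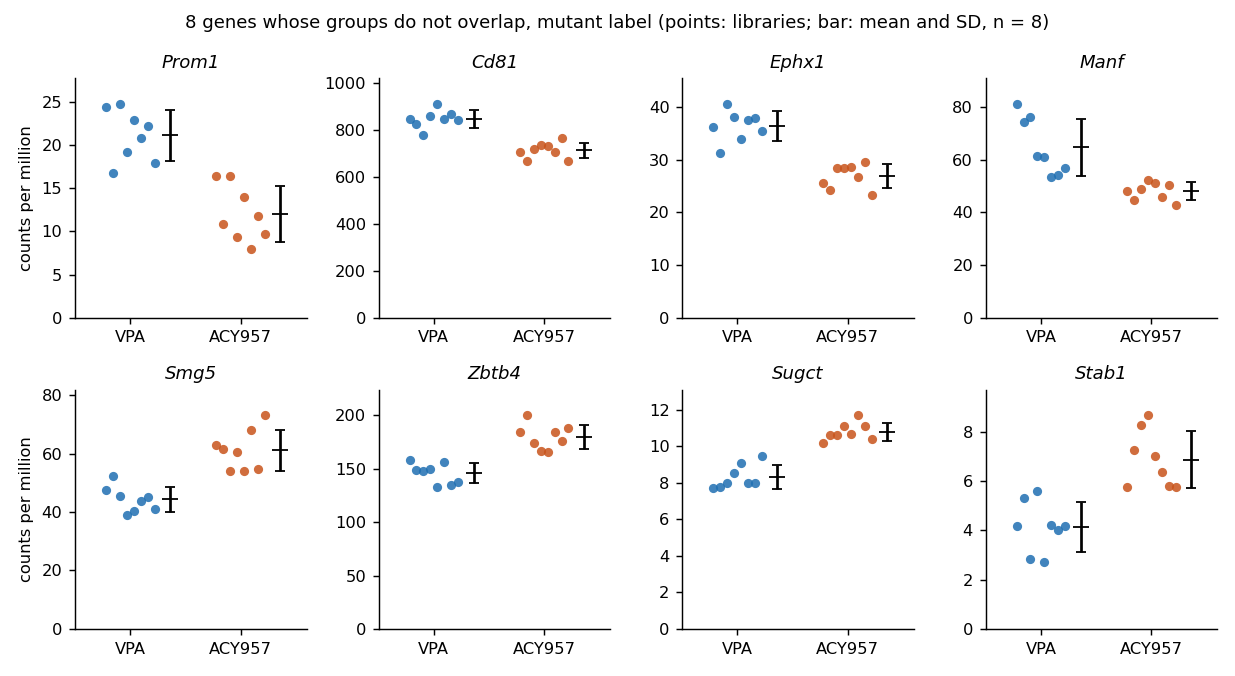
CPM of 8 genes in the 8 VPA (blue) and 8 ACY957 (orange) libraries under the mutant label, on linear axes from 0, with the mean and SD of each group as a bar. In each panel the groups do not overlap: Prom1, Cd81, Ephx1 and Manf are higher with VPA and Smg5, Zbtb4, Sugct and Stab1 lower.

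The 2 largest rises with VPA were in peptide genes of hypothalamic neurons, and they sat in 4 of the 8 libraries. Pmch (chr10:88091072-88092375), the precursor of melanin-concentrating hormone, ran from 4.48 through 19.7 to 541 CPM with VPA and from 4.48 through 5.73 to 10.3 CPM with ACY957. Hcrt (chr11:100761069-100762931), the precursor of orexin, ran from 0.283 through 0.948 to 42.2 CPM and from 0.325 through 0.603 to 0.886 CPM. Tac2, the precursor of neurokinin B, ran from 0.283 through 3.36 to 30.9 CPM and from 0.558 through 0.836 to 1.92 CPM. VPA replicates 2, 5, 7 and 8 lay above all ACY957 libraries in each of these genes, and the other 4 VPA libraries overlapped them. Replicate 8 was the highest for Pmch and Hcrt and replicate 2 for Tac2.

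These peptide genes passed the test, with log2 fold changes of 4.32 for Pmch (SE 0.61, edgeR, adjusted p = 1.04e-05), 4.24 for Hcrt (SE 0.64, adjusted p = 4.49e-05) and 3.12 for Tac2 (SE 0.60, adjusted p = 0.00185). Gal, the precursor of galanin, gave 1.36 (adjusted p = 0.0159). Of 18 hypothalamic peptide genes listed, 13 were tested, 4 were higher, none was lower, and the median log2 fold change was 0.26, against 0.0017 over all genes. Of 16 hypothalamic transcription factor genes tested, 6 were higher, among them Dlx1, Dlx2, Dlx6, Isl1 and Nkx2-2, and all 16 were positive, with a median of 1.53. The background was 3.17% of genes. Dlx1, a homeobox gene of ventral forebrain neurons, ran from 0.558 through 2.22 to 14.9 CPM with VPA and from 0.409 through 0.730 to 2.15 CPM with ACY957 (2.49, adjusted p = 0.011). Isl1, a LIM homeobox gene, gave 2.34 (adjusted p = 0.00528) and Dlx6 2.28 (adjusted p = 0.0105).

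The low-Th replicates 2 and 8 and replicate 7, the next lowest in Th at 303 CPM, carried most of this. Without replicates 2 and 8, Pmch was at 1.98 (edgeR, adjusted p = 0.00748), Hcrt at 2.94 (adjusted p = 0.00292), Tac2 at 1.92 (adjusted p = 0.0369), Gal at 1.25 (adjusted p = 0.0351) and Isl1 at 1.64 (adjusted p = 0.0422), while Dlx1 and Dlx6 did not pass (adjusted p = 0.178 and 0.268). With replicate 7 also left out, in a fit added after the data were examined, Pmch gave 0.77 (adjusted p = 0.265) and Hcrt 0.07 (adjusted p = 0.956). Replicates 2, 7 and 8 were the highest VPA libraries in both genes, so a fall was bound to follow from leaving them out. With Th as a covariate no gene of either hypothalamic list passed. The summed level of the hypothalamic peptide genes ran from 45.6 through 220 to 655 CPM with VPA and from 44.3 through 113 to 198 CPM with ACY957, and that of the dopamine neuron genes from 483 through 5370 to 11300 CPM and from 5640 through 9680 to 11600 CPM.

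Dopamine neuron genes were lower with VPA in every case but none passed. Th ran from 26.2 through 602 to 1430 CPM with VPA and from 669 through 1230 to 1600 CPM with ACY957 (log2 fold change -0.87, SE 0.42, edgeR, adjusted p = 0.192). Of the 23 listed genes, 0 passed and 23 were negative, with a median of -0.70 in all libraries. The median was -0.37 without replicates 2 and 8 and 0.02 with Th as a covariate. Th is itself in this list, and replicates 2 and 8 were left out for low Th. Both settings shrink the median by construction, so they cannot tell whether the drugs differ in these genes. Slc6a3, the dopamine transporter, ran from 6.65 through 1730 to 3680 CPM and from 1830 through 3030 to 3640 CPM (-0.77, adjusted p = 0.315). Slc18a2, the vesicular monoamine transporter, gave -0.87 (adjusted p = 0.175) and Ddc, aromatic amino acid decarboxylase, -0.66 (adjusted p = 0.232). These 3 were named after their values were seen. Among 12 ependymal and choroid plexus genes, 4 genes of motile cilia were higher (Dynlrb2, Foxj1, Rsph1 and Tmem212), against 3.17% over all genes. None passed without replicates 2 and 8. Over the list 6 genes were positive and 6 negative, with a median of -0.0074, and its summed level ran from 436 through 523 to 618 CPM with VPA and from 387 through 544 to 1220 CPM with ACY957. Foxj1, the transcription factor of motile cilia, was at 32.6 and 22.7 CPM in replicates 2 and 8 and between 5.10 and 9.53 CPM in the other 6 VPA libraries.

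**Figure D3:**
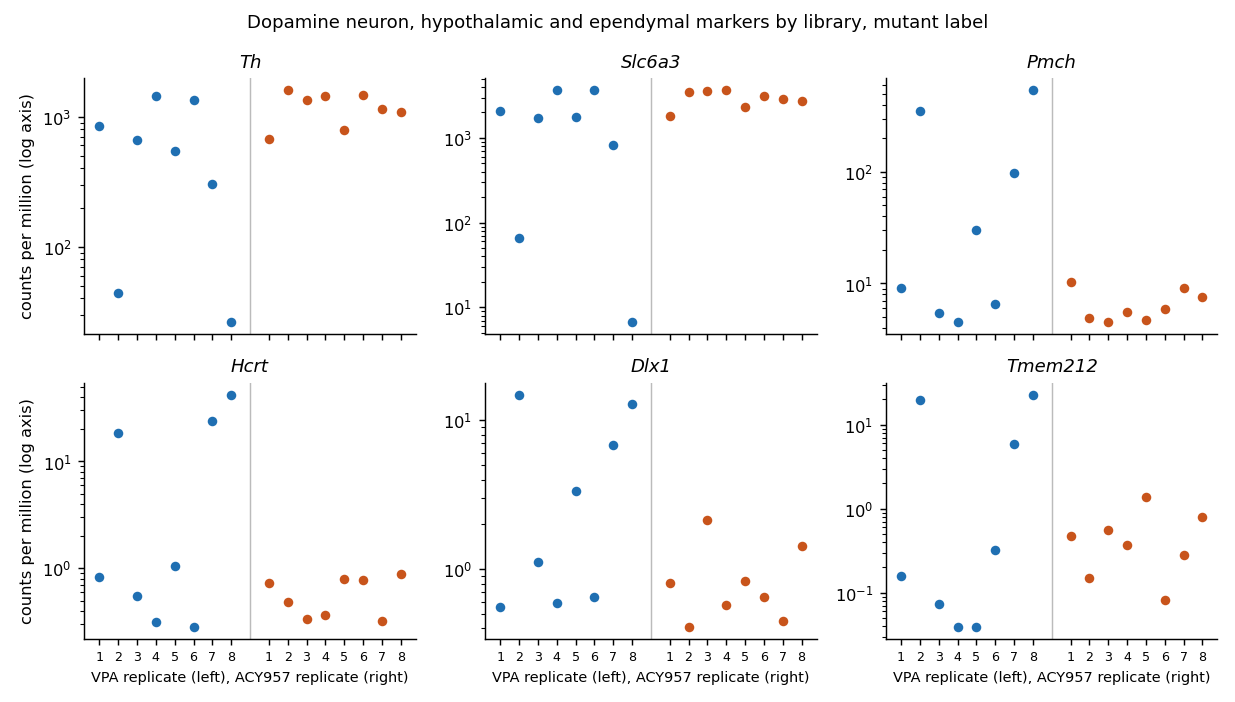
CPM (log axes) of the dopamine neuron genes Th and Slc6a3, the hypothalamic genes Pmch, Hcrt and Dlx1 and the ependymal gene Tmem212 in the 8 VPA (blue, left) and 8 ACY957 (orange, right) libraries under the mutant label, by replicate number. VPA replicates 2 and 8 are the lowest in Th, at 44.1 and 26.2, and, with replicate 7, the highest in Pmch, Hcrt, Dlx1 and Tmem212.

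Few genes of the deacetylase complexes and the clock passed the test, as over all genes tested (5.56%). Hdac1, Hdac2 and Hdac3, the catalytic subunits of the class I complexes, had medians of 18.5 CPM (Hdac1), 88.8 CPM (Hdac2) and 100 CPM (Hdac3) with VPA and 18.7, 86.7 and 96.7 CPM with ACY957. None passed (edgeR, log2 fold changes -0.02, 0.02 and -0.0073, adjusted p = 0.883, 0.872 and 0.957). Of 25 tested genes of class I deacetylase complexes, 1 passed: Mta3, a subunit of the NuRD complex, ran from 28.2 through 35.5 to 39.4 CPM with VPA and from 36.9 through 43.2 to 50.9 CPM with ACY957 (-0.31, adjusted p = 0.00694), with 6 of 8 VPA libraries below every ACY957 library. No class II or IV deacetylase of 7 and no core clock gene of 19 passed. Of 12 acetyltransferase and BET reader genes, Brd2, a reader of acetylated histones, was lower (-0.22, adjusted p = 0.0363), but not without VPA replicates 2 and 8 (adjusted p = 0.0561). In the clock output list Nmu, which it holds, was the only gene of 13 to pass. Gapdh, a glycolytic enzyme with many processed copies in the genome that can take its reads, had medians of 4.58 and 3.86 CPM and did not pass (adjusted p = 0.453).

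Of 15 histone and Cdkn1a genes tested, 3 were higher with VPA (against 3.17% over all genes) and none lower, with a median of 0.17. H3f3a, which encodes the replacement histone H3.3, ran from 79.7 through 88.7 to 112 CPM with VPA and from 61.3 through 73.9 to 83.2 CPM with ACY957 (0.28, SE 0.071, edgeR, adjusted p = 0.0143). Hist1h2bc and H2afj, of the H2B and H2A families, gave 0.32 (adjusted p = 0.0195) and 0.30 (adjusted p = 0.0496), and in each 7 of 8 VPA libraries lay above every ACY957 library. Members of these families share sequence and poly(A) selection takes up few canonical histone transcripts, so their counts are uncertain. All 3 missed the threshold without ACY957 replicate 2. Without VPA replicates 2 and 8 the list had 2 higher genes and a median of 0.08. The vehicles differed by a median of 0.12 over it, and with each drug set against its vehicle the median was -0.0069. Hist1h2bc itself differed between the vehicles by 0.34 (edgeR, adjusted p = 0.00835). With the offset for transcript length 2 genes of the list were higher and 1 lower, with a median of 0.0465.

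Of 14 genes of the endoplasmic reticulum stress response tested, 5 were higher with VPA (Calr, Dnajb11, Herpud1, Manf and Pdia6), against 3.17% over all genes. None was lower and 13 were positive, with a median of 0.22. Manf (chr9:106838312-106891979), a secreted factor induced by unfolded protein, ran from 53.4 through 61.1 to 81.1 CPM with VPA and from 42.8 through 48.5 to 52.4 CPM with ACY957, with no overlap (0.43, SE 0.12, edgeR, adjusted p = 0.0246). Calr, the calcium-binding chaperone calreticulin, ran from 542 through 607 to 660 CPM and from 432 through 520 to 586 CPM (0.25, adjusted p = 0.0305). Dnajb11, a co-chaperone of BiP, and Herpud1, a factor of degradation at the endoplasmic reticulum, gave 0.22 and 0.23 (adjusted p = 0.0327 and 0.0271). The count was 2 without VPA replicates 2 and 8, and Manf, Calr, Dnajb11 and Herpud1 each missed the threshold when VPA replicate 3, ACY957 replicate 2 or ACY957 replicate 8 was left out. The vehicles differed over this list by a median of 0.20, and with each drug set against its vehicle the median was 0.04.

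In the integrated stress response list, 2 of 13 genes were lower with VPA (against 2.39% over all genes) and none higher. Over the list 6 genes were positive and 7 negative, with a median of -0.02. Without VPA replicates 2 and 8, 1 gene was higher and 1 lower. Atf4, the central transcription factor of this response, ran from 79.9 through 97.3 to 119 CPM with VPA and from 108 through 130 to 149 CPM with ACY957. The log2 fold change was -0.38 (SE 0.089, edgeR, adjusted p = 0.00971), with 6 of 8 VPA libraries below every ACY957 library. Atf4 was called in 28 of 29 fits. Vldlr, a lipoprotein receptor, gave -0.24 (adjusted p = 0.0327) and did not pass without VPA replicates 2 and 8 (adjusted p = 0.0817). Psat1, an enzyme of serine synthesis in the same list, was positive, and passed only in the absence of those 2 libraries among these fits (0.21, adjusted p = 0.112, against 0.29, adjusted p = 0.0359).

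Of 13 oligodendrocyte genes, 2 were higher with VPA and 12 were positive (median 0.20), and without replicates 2 and 8, 4 passed (median 0.33). The shares higher over all genes were 3.17% and 3.05% in these fits. Cldn11 (chr3:31149920-31164324), a tight junction protein of myelin, ran from 320 through 508 to 609 CPM with VPA and from 270 through 356 to 381 CPM with ACY957. The 2 lowest VPA values were those of replicates 2 and 8, and the other 6 VPA libraries lay above every ACY957 library. The log2 fold change was 0.48 (SE 0.11, edgeR, adjusted p = 0.00694), and it was called in 29 of 29 fits. Mal, a myelin proteolipid, gave 0.39 (adjusted p = 0.041) and was called in 17 of 29 fits. Mog, a protein of the myelin surface, gave 0.32 in all libraries (adjusted p = 0.134) and 0.46 without replicates 2 and 8 (adjusted p = 0.0348). The vehicles differed over the list by a median of 0.25, and with each drug against its vehicle the median was 0.03.

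Among the other cell types, no microglial gene of 12 and no oligodendrocyte precursor gene of 10 passed, against 5.56% over all genes. Mlc1, a membrane protein of astrocyte endfeet, was the only astrocyte gene of 12 to pass (0.32, edgeR, adjusted p = 0.0107), but not without replicates 2 and 8 (adjusted p = 0.0531). Ly6c1, an endothelial surface protein, was the only endothelial and mural gene of 12 to pass (0.40, adjusted p = 0.0137), with 7 of 8 VPA libraries above every ACY957 library. Slc1a1, a neuronal glutamate transporter, was 1 of 5 glutamate neuron genes (0.17, adjusted p = 0.0496), and Slc6a11, a GABA transporter, 1 of 8 GABA metabolism genes (0.22, adjusted p = 0.0392). Rgs9, a regulator of G protein signalling in dopamine target cells, was lower among 7 striatal genes and among 11 dopamine receptor and signalling genes (-0.46, adjusted p = 0.0152). Adcy5, the adenylyl cyclase of that pathway, was lower in the latter list (-0.24, adjusted p = 0.0471). Of the 7 striatal genes 5 were positive (median 0.24), and of the 11 signalling genes 5 were positive and 6 negative. The vehicles differed in Rgs9 by -0.37 (edgeR, adjusted p = 0.0196) and in Adcy5 by -0.21 (adjusted p = 0.0398). With each drug set against its vehicle, Rgs9 gave -0.09 (adjusted p = 0.937). Lss, lanosterol synthase, was the only cholesterol synthesis gene of 18 to pass (-0.34, adjusted p = 0.0398). Slc1a1, Slc6a11, Adcy5 and Lss were each called in 11 or fewer of the 29 fits and were lost when any of several single libraries was left out.

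A list of 12 genes of perivascular and meningeal macrophages was drawn up after the data were examined. In it 4 genes passed, all lower with VPA (Stab1, Fcna, Wfdc17 and Clec10a), against 2.39% over all genes. Because the list was drawn up with the data already seen, its count beside that share cannot test for an excess. In the list 11 were negative, and the median was -0.77. Stab1 (chr14:31139013-31168641), a scavenger receptor, ran from 2.71 through 4.17 to 5.58 CPM with VPA and from 5.74 through 6.69 to 8.66 CPM with ACY957, with no overlap (-0.73, SE 0.16, edgeR, adjusted p = 0.00518). Fcna, a ficolin, ran from 0.664 through 0.904 to 2.19 CPM and from 1.83 through 2.94 to 4.77 CPM. Only VPA replicate 1, at 2.19 CPM, overlapped the ACY957 group. The log2 fold change of Fcna was -1.57 (SE 0.32, adjusted p = 0.00374), and that of Wfdc17, a small secreted protein of myeloid cells, -1.55 (adjusted p = 0.0098). Wfdc17 was very low, at 0.105 to 0.438 CPM with VPA and 0.396 to 1.13 CPM with ACY957. Stab1 and Fcna were called in 29 of 29 fits. Clec10a, a lectin, gave -0.87 (adjusted p = 0.0349), but -0.87 with an adjusted p of 0.0554 without VPA replicates 2 and 8. The vehicles differed over the list by a median of -0.14, the drugs against their vehicles by -0.62, and no member passed under the wildtype label (median -0.22). With each drug set against its vehicle, none of the 4 genes passed (edgeR, adjusted p = 0.584 for Wfdc17 and 0.622 for the others).

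Genes of ribosomes and of the respiratory chain had nearly all small positive values. The share higher over all genes was 3.17%, and 3.05% without VPA replicates 2 and 8. Of 74 ribosomal protein genes tested, 7 were higher, none lower and 72 positive, with a median of 0.19. Rpl28 ran from 120 through 123 to 140 CPM with VPA and from 93.4 through 107 to 117 CPM with ACY957, with no overlap (0.26, SE 0.063, edgeR, adjusted p = 0.0129). Rps28, Rps13 and Rps27l gave 0.54, 0.30 and 0.29. Ribosomal proteins have many near-identical pseudogenes, so their counts are uncertain. Of 89 respiratory chain genes, 15 were higher, none lower and 86 positive, with a median of 0.16, and 27 were higher without VPA replicates 2 and 8. Ndufc1, a subunit of complex I, ran from 111 through 123 to 139 CPM and from 84.2 through 102 to 112 CPM (0.32, SE 0.065, adjusted p = 0.00409). Ndufa8, of the same complex, and Sdhc, of succinate dehydrogenase, gave 0.26 and 0.23 (adjusted p = 0.00778 and 0.0115), and all 3 were called in 29 of 29 fits. The vehicles differed over the respiratory chain list by a median of 0.14 and over the ribosomal list by 0.09, and with each drug against its vehicle the medians were 0.01 and 0.10. Of 23 genes of fatty acid oxidation, a pathway that also breaks down VPA, none passed in all libraries, and Slc25a20, Acadl and Eci1 passed without replicates 2 and 8 (0.23, 0.21 and 0.27, adjusted p = 0.0284, 0.0291 and 0.0407).

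In 2 lists also drawn up after the data were examined, 3 of 15 sodium and calcium channel alpha subunits passed, all lower, with 14 negative and a median of -0.24. Of 31 kinesin heavy chains 4 passed, all lower, with a median of -0.18. The share lower over all genes was 2.39%, which cannot serve as a test of lists drawn up with the data already seen. Cacna1d, an L-type calcium channel, ran from 6.0 through 7.29 to 8.37 CPM with VPA and from 7.96 through 9.24 to 13.3 CPM with ACY957 (-0.46, edgeR, adjusted p = 0.0151). Cacna1b, of the N type, and Cacna1e, of the R type, gave -0.39 and -0.51 (adjusted p = 0.0192 and 0.0427). Kif1a, a motor of synaptic vesicle precursors, and Kif3b and Kif3c, of the heterotrimeric kinesin family, gave -0.41, -0.25 and -0.22 (adjusted p = 0.0111, 0.0121 and 0.0119). Cacna1b and Cacna1d did not pass without ACY957 replicate 2 or without ACY957 replicate 8, nor Kif1a without ACY957 replicate 2. Cacna1e was called in 9 of 29 fits, and did not pass without VPA replicates 2 and 8 or without any 1 of 9 single libraries (VPA replicates 1, 3, 5, 7 and 8 and ACY957 replicates 2, 3, 6 and 8). The vehicles differed over the channel list by a median of -0.25 and over the kinesin list by -0.05.

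**Figure D4:**
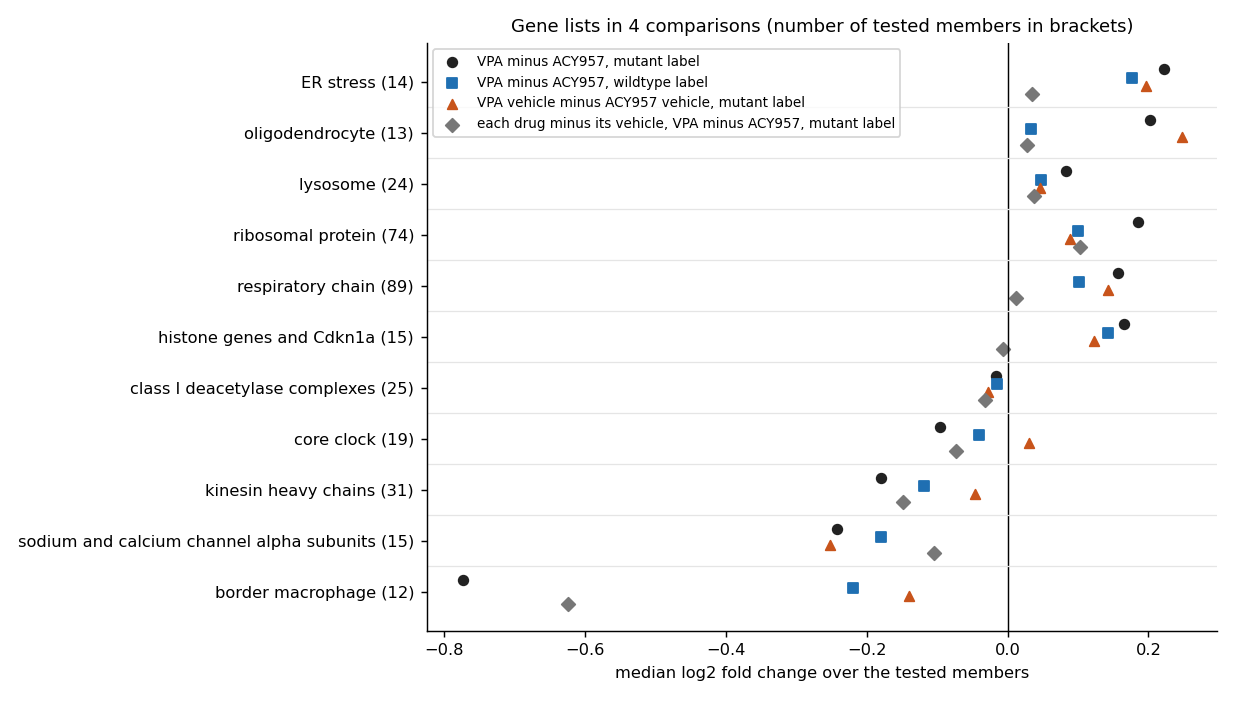
Median log2 fold change over the tested members of 11 gene lists in the direct comparison (black), the same comparison under the wildtype label (blue), the vehicles under the mutant label (orange) and each drug set against its vehicle under the mutant label (grey). For oligodendrocyte genes the direct and vehicle medians are 0.20 and 0.25 and the vehicle-subtracted median 0.03, and for border macrophage genes they are -0.77, -0.14 and -0.62.

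The direction of a difference went with transcript length. The median length was 1970 bases for the higher genes, 4801 bases for the lower and 3120 bases for all tested. Tested genes were put into 5 classes of equal size by length. In the class of the shortest transcripts 204 genes were higher and 21 lower, and in the class of the longest 15 were higher and 157 lower. The slope of log2 CPM on log2 length, relative to the mean library, ran from -0.164 through a median of -0.0558 to 0.0465 in the VPA libraries. In the ACY957 libraries it ran from -0.0405 through -0.00619 to 0.157, so the groups overlapped but had different medians. The lowest slope was that of VPA replicate 5. The highest were those of ACY957 replicates 2 (0.157) and 8 (0.0963). Leaving out either of these 2 alone gave the smallest counts of called genes over single libraries, 233 and 310. With an offset per library for length and GC content, added after the data were examined, 863 genes passed (5.52%), 542 higher (3.47%) and 321 lower (2.05%), with 589 of them among the 869, and the classes held 98 and 61 (shortest) and 93 and 72 (longest). Under that offset 4 ribosomal genes were higher (median 0.07), 7 respiratory chain genes were higher (median 0.04) and 1 channel gene was lower (median -0.09), while the border macrophage count stayed at 4 (median -0.76), the kinesin count at 4 and the endoplasmic reticulum count was 4. The part of RNA quality or library preparation in this was not tested.

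**Figure D5:**
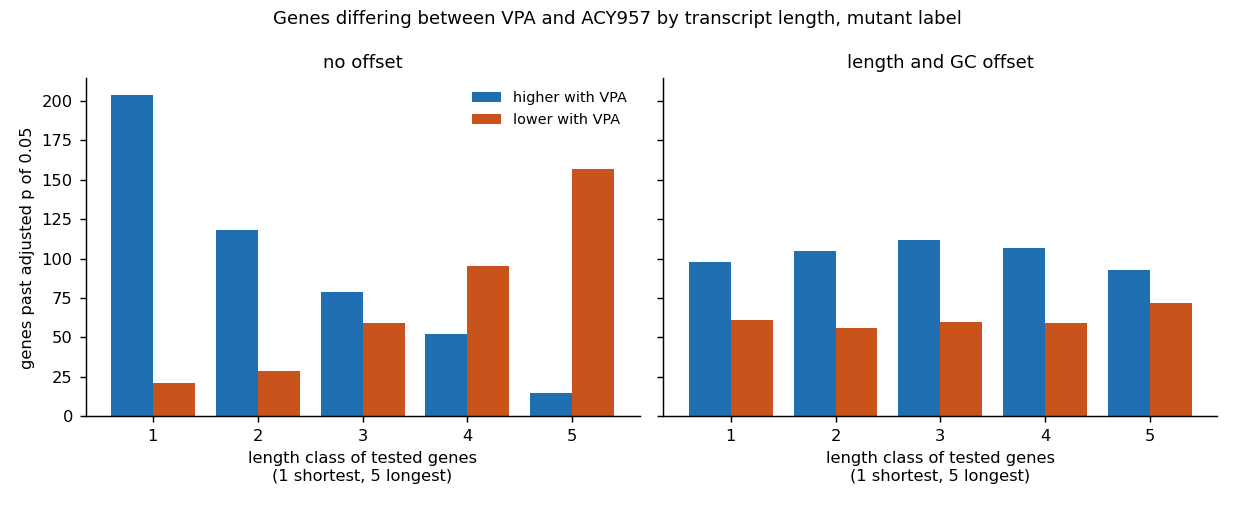
Number of genes higher (blue) and lower (orange) with VPA at an adjusted p under 0.05 in each of 5 classes of tested genes by transcript length, without (left) and with (right) an offset for length and GC content. Without it the shortest class holds 204 higher and 21 lower genes and the longest 15 and 157, and with it 98 and 61 and 93 and 72.

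The 2 drugs came with separate vehicles, and the vehicles under the mutant label differed from each other in 572 genes (3.66%), 290 higher (1.85%) and 282 lower (1.8%) with the VPA vehicle. Of the genes higher with VPA, 61 were among those 290, and of the lower genes 68 were among those 282. Against its own vehicle VPA gave 9 genes (0.0576%; 8 higher, 0.0512%) and ACY957 gave 1 (0.0064%), both counts from comparisons that share libraries with the direct one. The VPA count included Pmch (4.22, edgeR, adjusted p = 7.77e-08), Hcrt (4.36, adjusted p = 1.16e-07) and Tac2 (2.72, adjusted p = 0.00406), the genes that sat in VPA replicates 2, 5, 7 and 8. With each drug set against its vehicle, 2 genes differed between the drugs (0.0128%): Pmch (4.21, adjusted p = 0.00675) and Nmu (-2.90, adjusted p = 0.0473), with 1057 genes at an unadjusted p under 0.05. Neither remained past the threshold in the fit without VPA replicates 2 and 8, which gave 0 genes (edgeR, 601 at an unadjusted p under 0.05). Prom1 gave 0.49 (adjusted p = 0.60), Cd81 0.22 (adjusted p = 0.285) and Smg5 -0.33 (adjusted p = 0.512) in that comparison. Ephx1 differed between the vehicles by 0.34 (adjusted p = 0.0072). Further examples, lower with the VPA vehicle as with VPA, were Sgsm2 (-0.285), Shc2 (-0.205) and Mras (-0.132). Jam3 (0.244), Lamp1 (0.135), Bcap31 (0.149), Herpud1 (0.225) and Ly6c1 (0.321) were higher in both. For these genes the vehicle test gave adjusted p from 0.00837 to 0.0411 (edgeR). Prom1, Cd81, Smg5, Zbtb4 and Sugct did not pass between the vehicles (adjusted p = 0.0958, 0.707, 0.218, 0.114 and 0.475).

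Under the wildtype label VPA and ACY957 differed in 150 genes (0.959%), 55 higher (0.352%) and 95 lower (0.608%) with VPA. Of the genes called under the mutant label, 21 of the 495 and 19 of the 374 were called there in the same direction. A test of the difference between the labels called 1 gene (0.0064%), Pmch (4.32, edgeR, adjusted p = 0.0236), with 1385 genes at an unadjusted p under 0.05 and none called without VPA replicates 2 and 8 (910 at an unadjusted p under 0.05). Smg5, Zbtb4, Mras and Dvl1 were lower with VPA under the wildtype label as well (-0.33, -0.21, -0.20 and -0.19, adjusted p = 0.0272, 0.0376, 0.0307 and 0.0397). Prom1 (0.26, adjusted p = 0.354), Cd81 (0.13, adjusted p = 0.137) and Sugct (0.05, adjusted p = 0.763) did not pass there, and their differences between the labels did not pass either (adjusted p = 0.454, 0.601 and 0.184).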

How the data were processed

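The deposited file holds raw read counts for 24421 gene symbols, which the authors did not normalize. Reads were aligned to mm10 with TopHat2 2.0.9 and counted by HTSeq 0.6.1 (union mode) per the series' design text, while the submitters' processing notes list HISAT2 as aligner, after Trimmomatic, and which was used is not settled by these sources. GENCODE M21 held 23384 of the symbols, and 3945 symbols had no count. The main test was the quasi-likelihood F test of edgeR 4.0.16 (R 4.3.3; TMM, filterByExpr) in 1 model of 8 group means over all 64 libraries, with Benjamini-Hochberg adjustment over all tested genes and a threshold of 0.05. CPM are scaled by TMM, and a standard error (SE) was obtained by dividing each log2 fold change by the root of its F value. Alternatives to the main fit of the direct comparison used DESeq2 1.42.0, limma 3.58.1, other settings and other sets of libraries, 29 alternative fits in all. Members and gene lists were chosen with earlier results of these data known, 6 of the lists after the data were examined. Named genes were Clock, Th, Hdac1 to Hdac3 and Gapdh, the 10 with the smallest p in each direction with all libraries and without VPA replicates 2 and 8, up to 4 passing members of each list and genes past the test between labels, with predicted genes skipped. A further 14 were named after their values were seen. On simulated counts for this comparison (15538 genes), the fit recovered 48% of 1.3-fold, 72% of 1.5-fold and 96% of 2-fold changes, and 6.55% of its calls were false. Each gene was drawn independently there, with no shift shared by genes of a library, such as those of low-Th punches or transcript length. These shares therefore need not hold for the real libraries. Some genes that the rule names are not reported here. No 2 libraries held the same counts.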

Additional observations from a re-analysis of the deposited data

Results flagged for a closer look

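In groups of 8, a library was noted where its gap to the nearest other exceeded Dixon's 95% critical value as a share of the group's range. Of 194 such checks 7 stood out, and chance gives about 1 in 20. VPA replicate 2 stood apart for Kif5a, at 680 CPM against 436 CPM in the next library, for Sgsm2 (65.8 CPM against 47.6 CPM), for Bcap31 (151 CPM against 175 CPM) and for the clock output score (5.0 against 4.32). This library is also low in Th. Kif5a stood apart in ACY957 replicate 8 as well, at 903 CPM against 652 CPM. Fcna was at 2.19 CPM in VPA replicate 1 against 1.18 CPM in the next library, and H3f3a at 112 CPM in VPA replicate 5 against 92.9 CPM. The difference in Pmch between VPA and ACY957 differed between the genotype labels by 4.32 on the log2 scale (edgeR, adjusted p = 0.0236), and did not pass that test without VPA replicates 2 and 8.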

How the results depend on the processing

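No paired analysis was possible because the labels give no replicate numbers shared between the groups. The 869 genes of the direct comparison became 260 in the 16 libraries alone, 411 in these without VPA replicates 2 and 8, and 422 without VPA replicates 2, 7 and 8 in the full model (added after the data were examined). Leaving out each compared library in turn gave 233 to 1231. The test between the labels gave 1 gene, 2 with DESeq2 and 0 with limma voom, voom with quality weights, without VPA replicates 2 and 8, without every low-Th library, with Th as covariate, without libraries discordant in clock output, with the 32 drug-treated libraries alone and without VPA replicates 2, 7 and 8, with 0 to 1 over single libraries left out. The vehicle-subtracted comparison gave 2 genes, 1 with no low-count filter and 4 with DESeq2. It gave 0 with limma voom, with quality weights, without VPA replicates 2 and 8, without every low-Th library, with Th as covariate, without discordant libraries, with the 40 mutant-labelled libraries alone, without the 16 vehicle libraries from mouse 48 on and without VPA replicates 2, 7 and 8, with 0 to 4 over single libraries left out. These counts are of fewer libraries where libraries were left out, and the cause was not tested for the others.

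Of the 76 named genes past the threshold, 29 passed in all fits and 47 were lost in at least 1. Values that reversed, in log2, were the following. With Th as covariate Ddc was 0.12, Slc6a3 0.0070, Dynlrb2 -0.51, Rsph1 -0.38, Tmem212 -0.81, Hdac2 -0.0691 and Hdac3 0.0511. Without VPA replicates 2, 7 and 8 Dynlrb2 was -0.80, Foxj1 -0.0764, Rsph1 -0.49, Tmem212 -1.97, Hdac2 -0.0253 and Hdac3 0.0069. Without replicates 2 and 8 Rsph1 was -0.08, Hdac1 0.0043, Hdac2 -0.0248 and Hdac3 0.00999, and in the compared libraries alone -0.0816, 0.0021, -0.027 and 0.0079. Without every low-Th library they were -0.0762, 0.0073, -0.0218 and 0.0129. Clock was 0.0051 with the length offset, and Hdac2 -0.0133 without discordant libraries. Over single libraries left out, Hdac2 ran from -0.00312 to 0.0807 and Hdac3 from -0.0291 to 0.0153. None of these reversed values passed the threshold. The self-test recovered 48% of 1.3-fold changes, so differences of the size common here can be missed by this fit.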

Other observations

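In further lists drawn up after the data were examined, 5 of 24 lysosomal genes were higher with VPA and none lower (Ctsb, Gm2a, Lamp1, Laptm4a and Ppt1, edgeR, median log2 fold change 0.08), and 6 were higher without VPA replicates 2 and 8. Over all genes 3.17% were higher and 2.39% lower, shares that cannot serve as a test of lists drawn up with the data already seen. Of 38 proteasome subunits 3 were higher (Psma3, Psmb10 and Psmb2, median 0.10), and of 82 potassium channel genes 1 was higher and 3 were lower (median -0.02), near the shares over all genes. No member of 14 immediate early, 11 BDNF and GDNF signalling, 12 inositol and GSK3, 15 interferon-induced or 13 midbrain peptide genes passed. Tsc22d3, a glucocorticoid-induced leucine zipper protein, was the only 1 of 14 glucocorticoid-responsive genes to pass without VPA replicates 2 and 8 (0.46, edgeR, adjusted p = 0.0347), as were Hspe1, a mitochondrial chaperonin, of 11 heat shock genes (0.38, adjusted p = 0.0317) and Igfbp2 of 10 insulin-like growth factor genes (0.63, adjusted p = 0.0349). With all libraries none of these 3 passed (adjusted p = 0.0746, 0.0962 and 0.136), and the vehicles differed in Tsc22d3 by 0.45 (adjusted p = 0.0134) and in Igfbp2 by 0.71 (adjusted p = 0.00876).

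In Nmu, 2 libraries outside the direct comparison lay with the groups of other labels. ACY957 vehicle replicate 2 under the mutant label was at 6.02 CPM (153 reads), and ACY957 replicate 8 under the wildtype label at 0.786 CPM (19 reads).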
